A study of Mus musculus with 9 samples.

Results

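The lysosomal hydrolases, lysosomal membrane proteins and subunits of the lysosomal proton pump were followed in mouse alveolar macrophages that lack Vhl. The group was chosen by gene name and role, with earlier results of these data known, and comprises 47 of the 12003 genes in the table. It was divided into 10 cathepsins and other proteases, 8 glycosidases, 4 other hydrolases, 7 membrane proteins, 15 proteins of the vacuolar ATPase (V-ATPase) and 3 further genes, the transcription factors Tfeb and Tfe3 and the secreted lysosomal protein progranulin (Grn). All 47 were measured in every library, and the lowest number of reads for any of them in any library was 1034.

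Poly(A) RNA was sequenced from CD11c-bead-purified cells of bronchoalveolar lavage, the fluid rinsed from the airways, in 3 pools of 5 to 7 mice per genotype. Vhl knockouts carried the genotype Vhl(flox/flox)/CD11c(cre/+), in which Cre recombinase is driven by the promoter of the integrin CD11c. Cre controls were Vhl(+/+)/CD11c(cre/+), with the Cre transgene and intact Vhl alleles. Floxed controls were Vhl(flox/flox)/CD11c(+/+), with the floxed alleles and no Cre. All mice were 8 to 12 weeks old, on a C57BL/6 background and without treatment. The CD11c promoter is also active in dendritic cells, and a pool averages its mice, so p-values measure the spread between pools.

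Lysosomes degrade material that a cell takes up or recycles. Their hydrolases, among them the cathepsins, work at acidic pH, and the V-ATPase keeps that pH by pumping protons inward, with a cytosolic V1 sector that splits ATP and a V0 sector in the membrane that carries the protons. Alveolar macrophages use this system to break down surfactant, inhaled particles and dead cells. VHL is the part of a ubiquitin ligase that recognises hypoxia-inducible factors (HIF) and marks them for degradation. TFEB and TFE3 are transcription factors that activate many lysosomal genes through promoter elements built around the letters CACGTG.

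Values are normalized reads, that is read counts scaled to library size and a library factor, without correction for gene length. Vhl had 2.02, 2.14 and 2.52 normalized reads in knockouts, 24.0, 21.9 and 25.3 in Cre controls and 21.0, 14.9 and 18.4 in floxed controls (log2 fold change -2.75 ± 0.11, SE, adjusted p = 6.07e-08 in limma against both controls). All 13 markers of alveolar macrophages were measured and 4 rose and 3 fell in knockouts. Marker counts here are limma calls against both controls (adjusted p under 0.05), by which 19.7% of all genes rose and 20.2% fell. Chil3 had the highest level, at 30308 normalized reads in knockouts, 17180 in Cre controls and 18565 in floxed controls. Chil3, Fabp4, Marco and Pparg rose by 0.74, 1.17, 0.83 and 0.49 on the log2 scale, with every knockout library above every control. Siglecf, Car4 and Krt79 fell by 0.58, 0.43 and 1.10, with every knockout library below every control. The summed level of the 13, in which Chil3 weighs most, was 38092 to 50639 in knockouts, 28310 to 32979 in Cre controls and 29380 to 33370 in floxed controls. Of 12 dendritic cell markers, 11 fell and 1 rose in knockouts. Their summed level was 79.9 to 91.0 in knockouts, 175 to 346 in Cre controls and 139 to 269 in floxed controls, and none was at 0 in any library. Of 7 measured interstitial macrophage markers, 5 fell and 1 rose, with sums of 18.8 to 28.2 in knockouts, 25.1 to 34.8 in Cre controls and 35.9 to 63.3 in floxed controls. Against Cre controls alone 0 of these were called lower and 1 higher, and against floxed controls alone 5 lower and 0 higher. Of all genes, 17.7% were called lower against Cre controls and 16.8% against floxed controls. Of 8 monocyte markers 3 rose and 1 fell, with sums of 290 to 324 in knockouts, 185 to 209 in Cre controls and 203 to 282 in floxed controls. Of 8 lung epithelium markers 1 rose and 2 fell, among them Epcam by 1.34, and of 2 lymphocyte markers 1 rose and 1 fell. Both lymphocyte markers were called against Cre controls alone, and 0 against floxed controls alone. The mitochondrially encoded genes took 2.06% ± 0.316 of reads in knockouts, 3.58% ± 0.266 in Cre controls and 3.76% ± 1.59 in floxed controls (SD, n = 3). Library 1 of each genotype had the highest sum of 6 neutrophil markers, at 404 normalized reads in knockouts, 325 in Cre controls and 666 in floxed controls, and counts without these 3 libraries are given where they change a result. The part of these cells and of RNA quality in the results below was not tested, and in such bulk samples fewer cells of a type and less RNA per cell cannot be told apart.

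Most changes among the lysosomal genes were downward and small. In limma on log2(value + 1), 19 of the 47 genes fell and 4 rose in Vhl knockouts against both controls (adjusted p under 0.05 over all genes). This is 40.4% lower and 8.51% higher, where 20.2% of all genes were called lower and 19.7% higher. The median log2 fold change was -0.14 over the 47 genes and -0.0022 over all genes. Of the 23 called genes, 20 changed by less than 0.5 on the log2 scale, and 1, the phosphatase gene Acp5, changed by more than 1. The 4 genes that rose were Ctsa, Ctsc, Glb1 and Atp6ap1.

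The size of the downward count depended on the control. Against Cre controls, 20 genes were called lower and 4 higher, with a background of 17.7% and 16.3% of all genes (34% in either direction). Against floxed controls, 10 were called lower and 4 higher, with a background of 16.8% and 17.5% (34.3% in either direction). The 10 lower genes, which were also called lower against Cre controls, were Ctsh, Gusb, Man2b1, Ppt1, Dnase2a, Acp5, Atp6v1b2, Atp6v1d, Tfeb and Tfe3. They are 21.3% of the 47 genes, and 13.6% of all genes were called lower against each control separately. Without knockout 2 the 19 lower calls against both controls became 11, and without knockout 3 they became 12. The share of all genes called in either direction fell from 39.8% to 31.2% and 30.4% in these fits. Against Cre controls there were 13 lower calls without knockout 2, knockout 3 or Cre control 3, and 2 higher calls without knockout 1 or Cre control 2. In that order, 26%, 25.6%, 25.4%, 27.4% and 26.1% of all genes were then called in either direction, in place of 34%. Without library 1 of every genotype, 15 genes were called lower and 4 higher against both controls (background 35.5% in either direction). Against Cre controls there were then 20 lower and 2 higher calls (31.6%), and against floxed controls 7 lower and 1 higher (29.8%). Without the scaling factor 20 genes were called lower against floxed controls, and the median of all genes was then -0.073.

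The level in control libraries itself spread in 1 direction over many of these genes. The mean was higher in Cre controls than in floxed controls for 42 of 47 genes, with a median log2 difference of 0.10, against 0.01 over all genes. Cre control 1 was the lowest of its group for 27 genes and Cre control 3 the highest for 28, and knockout 1 was the highest of the knockouts for 31. Floxed control 3 was the lowest of its group for 31 genes and floxed control 2 the highest for 36. Floxed control 3 also had the highest scaling factor, 1.08, against 0.967 to 1.01 in the other libraries. As a share of reads, without that factor, the 47 genes took 3.11%, 3.34% and 3.13% in floxed controls 1, 2 and 3. The median coefficient of variation over the 47 genes was 3.91% in knockouts, 5.75% in Cre controls and 7.90% in floxed controls. Only Atp6v1e1 differed between the controls past the threshold, and the background of such calls was 0.167% of all genes, 0.0667% higher and 0.1% lower in Cre controls.

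**Figure D1:**
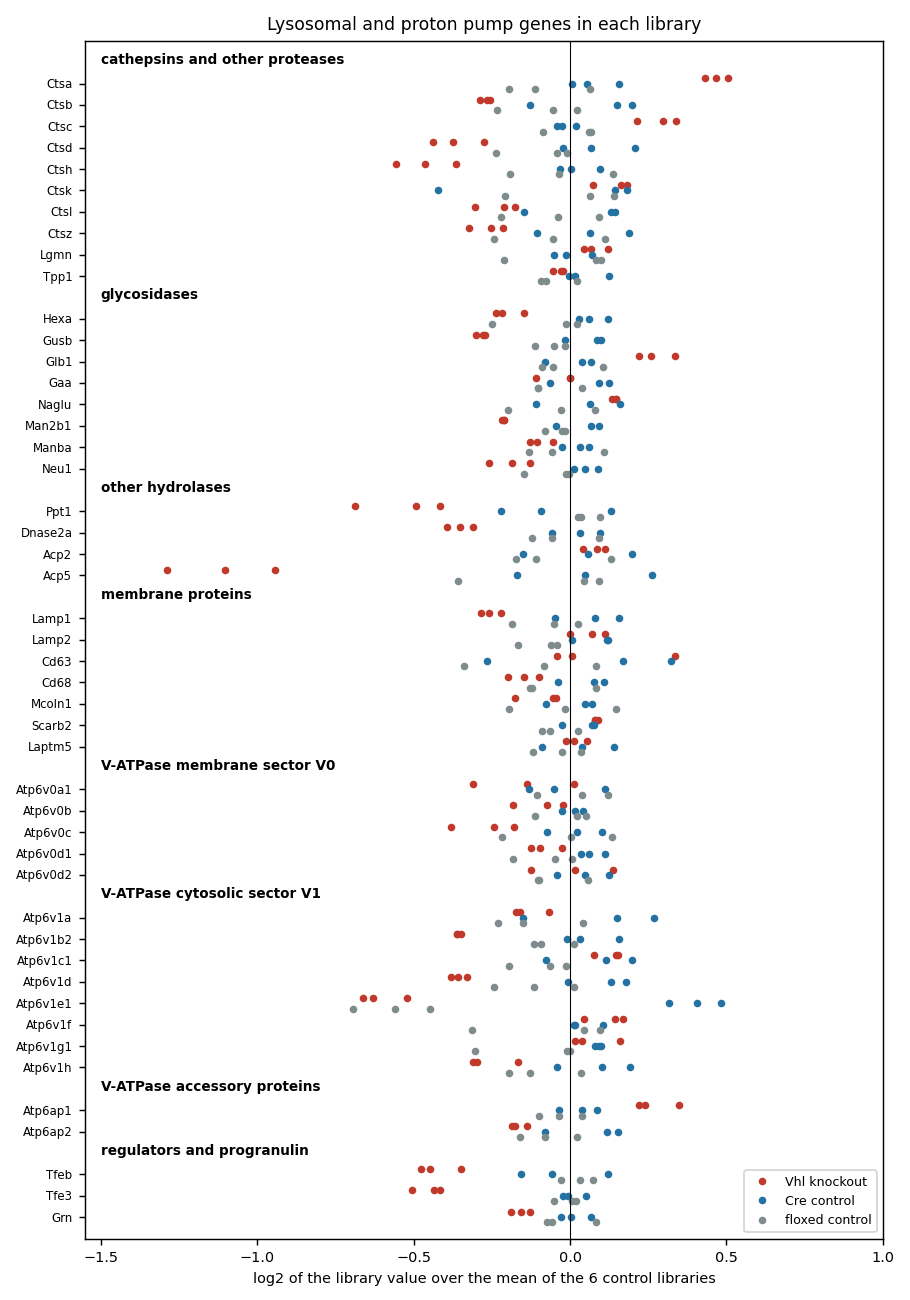
Each point is 1 library, placed by the log2 of its value over the mean of the 6 control libraries, with Vhl knockouts in red, Cre controls in blue and floxed controls in grey. The knockout points of Acp5 lie furthest to the left, those of Ctsa furthest to the right, and for Atp6v1e1 all 3 floxed controls lie on the left with the knockouts.

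The 47 genes together took 2.87% ± 0.0834 of all reads in knockouts, 3.37% ± 0.111 in Cre controls and 3.19% ± 0.126 in floxed controls (SD, n = 3). Without Ctsd, the gene with most reads, the shares were 2.21% ± 0.0446 in knockouts, 2.45% ± 0.0544 in Cre controls and 2.36% ± 0.101 in floxed controls. Per kilobase of exon, Ctsd had the highest level, at 2869 normalized reads in knockouts, 3914 in Cre controls and 3453 in floxed controls. The membrane protein genes Laptm5 and Cd68 followed, at 888 and 639 per kilobase in knockouts. Tfe3 had the lowest level per kilobase, at 5.91 in knockouts, 8.13 in Cre controls and 8.04 in floxed controls.

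Both transcription factor genes fell in knockouts, by similar amounts against either control. Tfe3 (X:7762560-7775202, GRCm38) had 56.1, 52.8 and 55.3 normalized reads in knockouts, 74.6, 73.8 and 77.6 in Cre controls and 72.3, 75.8 and 75.2 in floxed controls. The knockout libraries lay below all controls, at a log2 fold change of -0.45 ± 0.046 (SE, adjusted p = 4.89e-05), the smallest adjusted p of the 47 genes. Tfeb (17:47737030-47792419) had 65.2, 59.7 and 60.9 in knockouts, 90.4, 74.5 and 79.8 in Cre controls and 87.4, 85.0 and 81.4 in floxed controls. Its knockout libraries also lay below all controls, and its log2 fold change was -0.42 ± 0.066 (adjusted p = 0.00073). Grn, whose protein is split into granulins in the lysosome, had 984, 964 and 943 in knockouts, 1053, 1076 and 1126 in Cre controls and 1032, 1137 and 1022 in floxed controls. The groups did not overlap, yet the difference of -0.16 missed the threshold (adjusted p = 0.0594). Over all genes, 18.5% had all knockout libraries below all 6 control libraries, and 14 of the 47 did.

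The promoters are shown because the TFEB family binds CACGTG. RefSeq windows (GRCm38.p6) from 250 bases before to 50 after the annotated start were matched for 40 of the 47 genes, and both strands of each 300-base window were searched, any window of a gene counting. CACGTG was found for 12 of 40 genes (30%), against 12.0% of 9241 genes of the table with a window. The longer TCACGTGA, which contains it, was found for 5 (12.5%) against 2.27%. The longest form searched, which adds a G before TCACGTGA and a C after it, was found for 0 of the 40 genes, against 0.844%. With a share this low in the table, 40 genes are too few to tell the shares apart. Of the letters that HIF binds, ACGTG outside CACGTG was found for 5 genes (12.5%) against 20.4%, and GCGTG for 19 (47.5%) against 56.0%. The 6 stretches below come from genes that rose (Ctsa and Glb1), fell (Lamp1 and Ctsd) or were not called (Mcoln1 and Atp6v0d1), each on the gene's own strand, with CACGTG in capitals:
Ctsa (chr2:164833749-164833795, plus strand): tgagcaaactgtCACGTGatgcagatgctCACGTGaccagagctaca
Glb1 (chr9:114401018-114401047, plus strand): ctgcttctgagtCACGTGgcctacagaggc
Lamp1 (chr8:13159088-13159163, plus strand): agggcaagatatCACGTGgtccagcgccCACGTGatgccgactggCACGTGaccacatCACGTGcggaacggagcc
Ctsd (chr7:142387908-142387937, minus strand): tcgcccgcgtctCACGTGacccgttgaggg
Mcoln1 (chr8:3500436-3500491, plus strand): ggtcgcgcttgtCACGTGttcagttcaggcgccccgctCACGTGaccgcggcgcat
Atp6v0d1 (chr8:105566050-105566079, minus strand): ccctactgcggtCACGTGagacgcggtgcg

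Lamp1 holds 4 copies in the 76 bases shown, all before the annotated start. The Ctsa stretch holds 2, of which 1 lies past the annotated start of its own window (chr2:164833523-164833822). That window belongs to a further start inside the gene, and the window at the gene start (chr2:164832622-164832921) holds 0 copies. By call, CACGTG was found for 2 of the 4 genes that rose, 2 of the 15 matched genes that fell and 8 of the 21 matched genes that were not called. A match of letters is a description of the sequence and says nothing of binding in these cells.

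Among the 10 proteases, 4 fell and 2 rose against both controls, with a median log2 fold change of -0.13. Against floxed controls alone 1 was called lower and 2 higher, with a median of -0.080 and as many genes above 0 as below. This share of 30% was near the 34.3% of all genes called against floxed controls. Ctsa (2:164832873-164841032) encodes cathepsin A, a carboxypeptidase that also holds beta-galactosidase and neuraminidase 1 in a protective complex. It had 1435, 1469 and 1509 normalized reads in knockouts, 1103, 1067 and 1186 in Cre controls and 928, 1112 and 984 in floxed controls. Every knockout library was above every control, and the log2 fold change of 0.47 ± 0.071 (SE, adjusted p = 0.000554) was the largest rise of the 47 genes. Exons of Ctsa overlap those of Pltp by up to 311 bases and of Neurl2 by up to 324 bases on the opposite strand. These lengths, and those below, are the longest overlap of any single pair of exons, so the total shared may be larger. Pltp was 801 ± 111 in knockouts, 190 ± 36.2 in Cre controls and 137 ± 15.5 in floxed controls (SD, n = 3), and its reads in the overlap cannot be told from those of Ctsa without a known strand setting. The same limit holds for Hexa with Tmem202 (longest overlap 255 bases), Ppt1 with Cap1 (129), Acp2 with Ddb2 (441) and Ctsz with Nelfcd (10). Exons of Glb1 overlap those of Tmppe by up to 165 bases on the same strand, where no strand setting would separate the reads.

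Ctsc (7:88278085-88310888), the dipeptidyl peptidase that activates granule serine proteases, had 1547, 1419 and 1502 in knockouts, 1200, 1188 and 1240 in Cre controls and 1274, 1281 and 1150 in floxed controls. The groups did not overlap, and the log2 fold change was 0.29 ± 0.063 (adjusted p = 0.00523). Ctsh (9:90054152-90076089), an aminopeptidase, had 306, 285 and 268 in knockouts, 421, 386 and 395 in Cre controls and 433, 385 and 345 in floxed controls. It fell by 0.46 ± 0.076 on the log2 scale (adjusted p = 0.00097), again without overlap.

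Ctsd (7:142375911-142388038) encodes cathepsin D, the main aspartic protease of lysosomes. It had 7164, 6677 and 6394 in knockouts, 8516, 9080 and 10006 in Cre controls and 8410, 8594 and 7348 in floxed controls, where floxed control 3 was close to knockout 1. It fell by 0.36 ± 0.11 (adjusted p = 0.0265) against both controls, and against floxed controls alone the difference of -0.27 did not pass (adjusted p = 0.134). The cysteine protease genes Ctsb and Ctsz fell by 0.26 each against both controls (adjusted p = 0.043 and 0.0437). The calls of Ctsd, Ctsb and Ctsz were lost without any single knockout library. With these omissions and other settings counted, Ctsb and Ctsz each lost the call in 9 of 19 alternatives and Ctsd in 6. Exons of Ctsb also overlap those of Fdft1 by up to 774 bases on the opposite strand. Fdft1 was at 26.2 ± 4.28 in knockouts, 55.3 ± 10.4 in Cre controls and 57.8 ± 8.55 in floxed controls.

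The other 4 proteases were not called. Ctsk, a collagen-cleaving cathepsin, had 712, 720 and 668 in knockouts, 474, 720 and 702 in Cre controls and 664, 700 and 551 in floxed controls, with Cre control 1 as the low library. Tpp1, tripeptidyl peptidase, had 352, 345 and 352 in knockouts, 358, 362 and 390 in Cre controls and 336, 364 and 340 in floxed controls. Ctsl had a log2 difference of -0.22 (adjusted p = 0.061), and Lgmn, the asparaginyl endopeptidase legumain, of 0.08 (adjusted p = 0.404).

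Of the 8 glycosidases, which remove sugars from glycoproteins, glycolipids and glycosaminoglycans, 4 fell and 1 rose against both controls, with a median of -0.14, and against floxed controls alone 2 were called lower and 1 higher. The shares called were 62.5% and 37.5%, where 39.8% and 34.3% of all genes were called, so the latter was near the background. Glb1 (9:114401076-114474898), acid beta-galactosidase, had 86.8, 80.0 and 82.3 in knockouts, 72.0, 65.0 and 70.5 in Cre controls and 64.5, 73.9 and 66.2 in floxed controls. All knockout libraries were above all controls, at a log2 fold change of 0.27 ± 0.06 (SE, adjusted p = 0.00545). Neu1 (17:34931253-34935953), the sialidase that shares the cathepsin A complex with Glb1, went the other way. It had 172, 165 and 157 in knockouts, 200, 190 and 194 in Cre controls and 186, 187 and 169 in floxed controls, and fell by 0.19 ± 0.052 (adjusted p = 0.0165), with overlap between knockouts and floxed controls. Its call was lost without knockout 2 and without knockout 3.

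Gusb (5:129989011-130003049), beta-glucuronidase, had 347, 346 and 340 in knockouts, 448, 415 and 444 in Cre controls and 404, 415 and 388 in floxed controls. It fell by 0.28 ± 0.048 (adjusted p = 0.00119) with no overlap of groups. Man2b1 (8:85083270-85098282), lysosomal alpha-mannosidase, had 627, 630 and 630 in knockouts, 763, 706 and 777 in Cre controls and 716, 721 and 689 in floxed controls. The knockouts were nearly identical to each other and below all controls (log2 fold change -0.21 ± 0.052, adjusted p = 0.00909). Its call was lost without library 1 of every genotype.

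Hexa, the alpha subunit of beta-hexosaminidase, fell by 0.20 (adjusted p = 0.0432), a call lost without any single library other than floxed control 3. Gaa, the acid alpha-glucosidase that degrades glycogen, had 155, 155 and 144 in knockouts, 149, 166 and 169 in Cre controls and 145, 159 and 145 in floxed controls. Manba, beta-mannosidase, had 133, 131 and 138 in knockouts, 149, 140 and 146 in Cre controls and 131, 154 and 137 in floxed controls. Both overlapped and were not called, as was Naglu, which removes N-acetylglucosamine from heparan sulfate (log2 difference 0.15, adjusted p = 0.142).

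Among the 4 other hydrolases, 3 fell and 0 rose against both controls and against each, with no overlap between knockouts and controls for any of the 3. These are 75% of the class. Of all genes, 20.2% were called lower against both controls and 13.6% against each, and 18.5% had all knockout libraries below all controls. Acp5 (9:22126727-22135711), tartrate-resistant acid phosphatase, had 163, 146 and 128 in knockouts, 279, 324 and 376 in Cre controls and 335, 323 and 245 in floxed controls. Knockouts averaged 46.5% of the control mean, and the log2 fold change of -1.09 ± 0.12 (SE, adjusted p = 8.84e-05) was the largest fall of the 47 genes. It was -1.15 against Cre controls and -1.03 against floxed controls.

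Ppt1 (4:122836242-122859175), the thioesterase that removes palmitate from proteins, had 259, 215 and 246 in knockouts, 379, 297 and 324 in Cre controls and 369, 352 and 354 in floxed controls. It fell by 0.53 ± 0.083 (adjusted p = 0.000723). Dnase2a (8:84908560-84922915), the acid endonuclease that digests engulfed DNA, had 143, 147 and 139 in knockouts, 196, 176 and 187 in Cre controls and 176, 195 and 168 in floxed controls. It fell by 0.35 ± 0.059 (adjusted p = 0.00115). Acp2, lysosomal acid phosphatase, had 168, 176 and 173 in knockouts, 147, 170 and 187 in Cre controls and 145, 179 and 151 in floxed controls, and was not called.

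Of the 7 membrane proteins, 1 fell and 0 rose against both controls, with a median of 0.02, and limma called 0 against floxed controls alone (3 at an unadjusted p under 0.05). The share called against both controls was 14.3%, where 39.8% of all genes were called, and against floxed controls 34.3% of all genes were. Lamp1 (8:13159161-13175338), an abundant glycoprotein lining the lysosomal membrane, had 1166, 1117 and 1136 in knockouts, 1314, 1438 and 1515 in Cre controls and 1311, 1383 and 1195 in floxed controls. Knockouts lay below all controls, at a log2 fold change of -0.25 ± 0.071 (SE, adjusted p = 0.0179), and the call was lost without knockout 2 and without knockout 3. Its relative Lamp2 had a log2 difference of 0.06 (adjusted p = 0.392).

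Laptm5, a transmembrane protein of blood cells, had 3447, 3348 and 3292 in knockouts, 3662, 3121 and 3411 in Cre controls and 3060, 3400 and 3259 in floxed controls. Cd68, a macrophage lysosomal glycoprotein, had 831, 803 and 776 in knockouts, 867, 937 and 959 in Cre controls and 814, 942 and 818 in floxed controls. Neither was called, and both overlapped. The calcium channel gene Mcoln1, the tetraspanin gene Cd63 and Scarb2, the receptor that carries glucocerebrosidase to lysosomes, lay between -0.09 and 0.12 on the log2 scale and were not called. The 3 knockout libraries of Scarb2 nonetheless lay above all controls, as did those of 5 of the 47 genes in all, and of 19.3% of all genes.

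**Figure D2:**
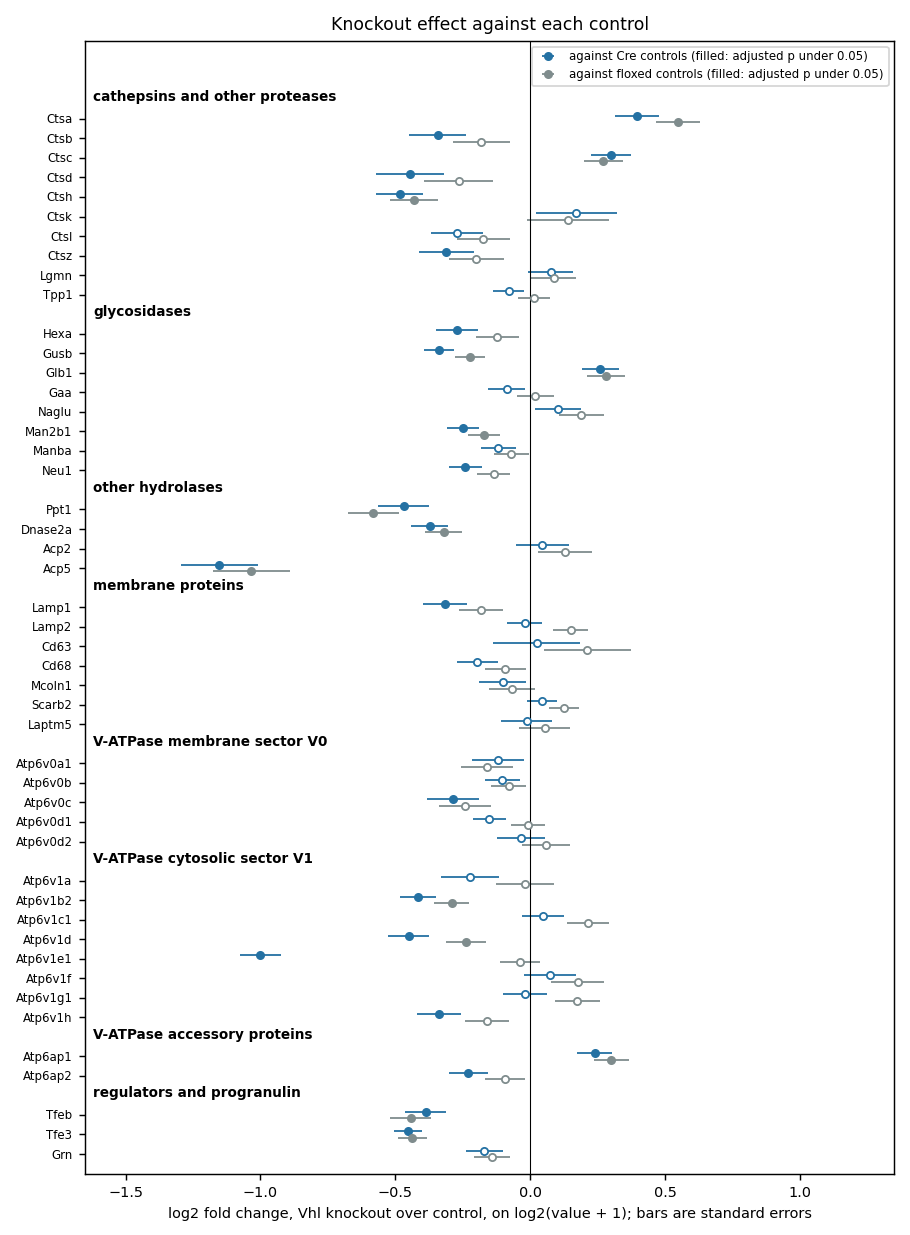
For each gene the point gives the log2 fold change of Vhl knockouts over Cre controls (blue) or floxed controls (grey) with its standard error, filled where the adjusted p was under 0.05. Most blue points lie left of their grey partner, and the pair is furthest apart for Atp6v1e1, at -1.001 against Cre controls and -0.04 against floxed controls.

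Of the 15 V-ATPase genes, 5 fell and 1 rose against both controls, with a median of -0.12. Against Cre controls 6 were called lower and 1 higher, and against floxed controls 2 lower and 1 higher. The share called was 40% against both controls, where 39.8% of all genes were called, and 20% against floxed controls, where 34.3% were. In the V0 sector, 1 of 5 was called against both controls and 0 by limma against floxed controls alone (1 at an unadjusted p under 0.05). Atp6v0c (17:24163866-24169702), a proteolipid of the proton-carrying ring, had 528, 505 and 459 in knockouts, 568, 608 and 642 in Cre controls and 599, 656 and 515 in floxed controls. It fell by 0.26 ± 0.083 (SE, adjusted p = 0.0289), with overlap, and the call was lost without knockout 2, knockout 3, Cre control 2 or Cre control 3. The gene has annotated pseudogenes, so the reads assigned to it may be divided with them.

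Both measured forms of the d subunit, which couples the ring to the stalk, did not pass the test. Atp6v0d2, the form found in osteoclasts and some macrophages, had 1238, 1033 and 1137 in knockouts, 1093, 1164 and 1226 in Cre controls and 1048, 1172 and 1050 in floxed controls. Atp6v0d1, the widespread form, had 266, 254 and 249 in knockouts, 278, 283 and 293 in Cre controls and 262, 272 and 239 in floxed controls. The ratio of Atp6v0d2 to Atp6v0d1 reads was 4.43 ± 0.315 in knockouts, 4.08 ± 0.129 in Cre controls and 4.23 ± 0.208 in floxed controls (SD, n = 3), a difference within the spread between libraries. Per kilobase of exon, Atp6v0d2 was at 418 and Atp6v0d1 at 143 in knockouts.

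In the V1 sector, 4 of 8 genes fell and 0 rose against both controls, with a median of -0.19. Against floxed controls alone 2 were called lower, Atp6v1b2 and Atp6v1d, and the median was -0.029. The share called was 50% against both controls and 25% against floxed controls, where 39.8% and 34.3% of all genes were called. Atp6v1b2 (8:69088646-69113711), which forms the ATP-splitting head with Atp6v1a, had 568, 568 and 572 in knockouts, 724, 746 and 813 in Cre controls and 673, 736 and 684 in floxed controls. Knockouts were below all controls, at -0.35 ± 0.057 (SE, adjusted p = 0.00083). Atp6v1d (12:78840725-78861638), a subunit of the central stalk, had 69.5, 70.6 and 72.0 in knockouts, 90.0, 102 and 98.9 in Cre controls and 83.5, 91.2 and 76.5 in floxed controls. It fell by 0.34 ± 0.065 (adjusted p = 0.00204), also without overlap.

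Atp6v1h (1:5070018-5162529), a regulatory subunit, had 86.2, 85.6 and 94.5 in knockouts, 103, 121 and 114 in Cre controls and 97.1, 109 and 92.7 in floxed controls. It fell by 0.25 ± 0.07 (adjusted p = 0.0173), and the call was lost without knockout 1 or knockout 2. Atp6v1a, the catalytic partner of Atp6v1b2, had 316, 314 and 337 in knockouts, 318, 426 and 393 in Cre controls and 319, 364 and 301 in floxed controls, and was not called. Atp6v1c1, Atp6v1f and Atp6v1g1 lay between 0.08 and 0.13 on the log2 scale and were not called either.

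Atp6v1e1 (6:120794305-120822793), a subunit of the peripheral stalk, stood apart. It had 133, 121 and 124 in knockouts, 238, 253 and 267 in Cre controls and 130, 140 and 118 in floxed controls. The Cre controls were high, and the knockouts overlapped the floxed controls, the other genotype with floxed Vhl alleles. The log2 fold change was -1.001 ± 0.075 against Cre controls (SE, adjusted p = 6.72e-06) and -0.04 ± 0.075 against floxed controls (adjusted p = 0.735). Cre controls exceeded floxed controls by 0.96 (adjusted p = 0.000445). The call against both controls (-0.52, adjusted p = 0.000171) therefore averages a large difference and a small one. The gene lies on the chromosome of Vhl, with its start 7.16 Mb past the end of Vhl.

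The accessory proteins of the pump gave opposite signs. Atp6ap1 (X:74297097-74304721), also known as Ac45, had 558, 517 and 511 in knockouts, 450, 428 and 465 in Cre controls and 409, 451 and 428 in floxed controls. It rose by 0.27 ± 0.056 (SE, adjusted p = 0.00358) without overlap. Atp6ap2, the prorenin receptor, had 237, 236 and 244 in knockouts, 253, 298 and 291 in Cre controls and 253, 272 and 240 in floxed controls. It was called lower against Cre controls (-0.23, adjusted p = 0.0364) but not against both (-0.16, adjusted p = 0.0704).

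**Figure D3:**
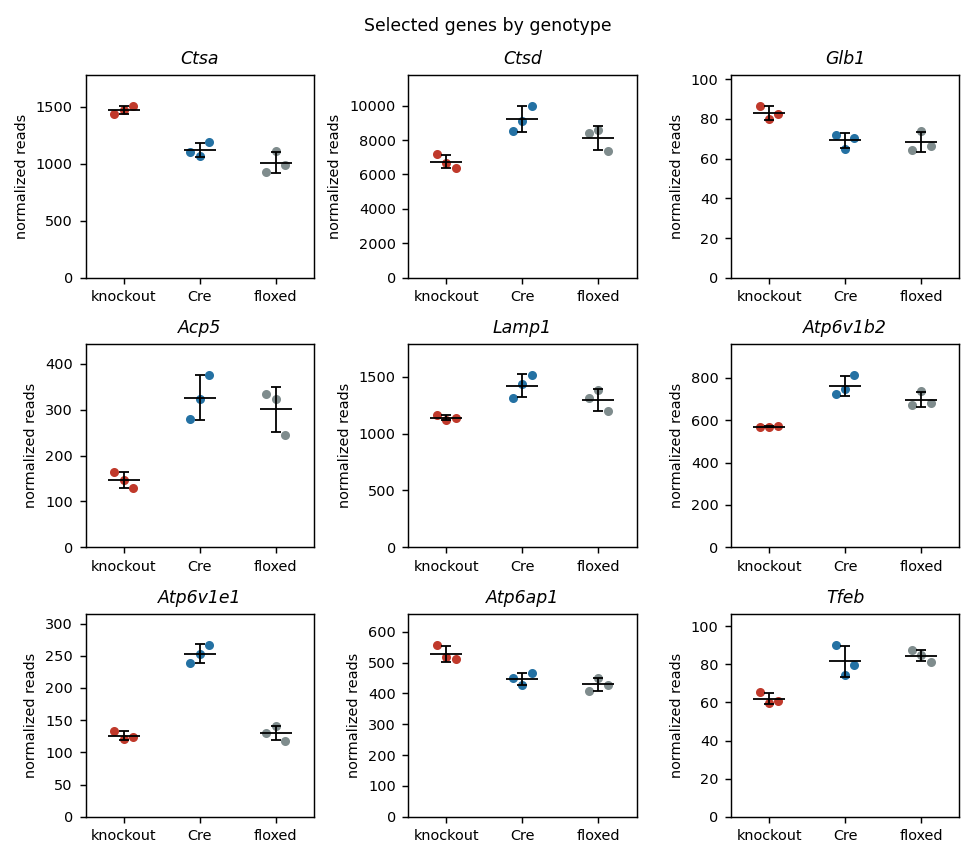
Normalized reads of 9 genes in each library of Vhl knockouts, Cre controls and floxed controls, with a line at the mean and a bar of 1 SD (n = 3). Ctsa, Glb1 and Atp6ap1 are high in knockouts, Ctsd, Acp5, Lamp1, Atp6v1b2 and Tfeb are low in them, and Atp6v1e1 is high in Cre controls.

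A wider list of 141 other lysosome genes, of which 124 were measured, was divided more evenly. Against both controls 25 rose and 29 fell, 43.5% of the 124 where 39.8% of all genes were called, with a median of -0.0069. The changes were larger at the extremes than among the 47 genes. The counts of each list below stand beside 19.7% of all genes called higher and 20.2% lower, 39.8% in either direction. Of 21 other glycosidases and sulfatases, 7 rose and 4 fell (52.4% called). Hyal1, a hyaluronidase, had 19.3, 21.9 and 25.1 normalized reads in knockouts, 0.278, 0.994 and 0.622 in Cre controls and 0.924, 0.461 and 1.01 in floxed controls, a log2 fold change of 3.77 ± 0.17 (SE, adjusted p = 1.41e-07). Of its control values only 0.994 and 1.01 reached 0.962, the level that every gene of the table has in at least 3 libraries. Hyal1 is thus in the table through its knockout values, and its test is not independent of that limit. Hyal2, its relative, rose by 0.65. Galc, galactosylceramidase, had 25.5, 26.1 and 24.95 in knockouts, 53.5, 58.0 and 60.3 in Cre controls and 51.2, 55.3 and 48.5 in floxed controls. It fell by 1.06 (adjusted p = 7.04e-07). Sgsh, which removes sulfate from heparan sulfate, fell by 0.83, at no more than 3.15 normalized reads in any library.

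Of 13 lipid hydrolases and sphingolipid activators, 6 rose and 3 fell (69.2% called). Gm2a, the activator protein that presents ganglioside GM2 to the hexosaminidase of which Hexa is a subunit, had 1162, 1120 and 1210 in knockouts, 426, 378 and 406 in Cre controls and 446, 369 and 368 in floxed controls. It rose by 1.55 ± 0.074 (adjusted p = 2.08e-07), while Hexa fell by 0.20. The sphingomyelinase gene Smpd1 rose by 1.34, the saposin precursor gene Psap fell by 0.68 and Plbd1, a phospholipase B-like protein, fell by 1.031. Of 6 other proteases, 1 rose (Ctsf, cathepsin F, by 0.69) and 1 fell (Dpp7, a dipeptidyl peptidase, by 0.49). Of 3 protease inhibitors, 1 fell (Cstb, cystatin B, by 0.41). The share called was 33.3% for these proteases and also for the inhibitors.

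Of 25 other membrane proteins, channels and transporters, 5 rose and 8 fell (52% called). Slc11a1, a metal ion transporter of phagosomes, had 11.7, 10.5 and 6.68 in knockouts, 27.8, 63.5 and 50.1 in Cre controls and 45.8, 36.1 and 30.7 in floxed controls. Its log2 fold change was -2.005 ± 0.25 (SE, adjusted p = 0.000161). Slc29a3, a nucleoside transporter, fell by 0.66, Clcn7, the chloride-proton exchanger, by 0.64, and the channel gene Mcoln2 by 0.48. Of 13 other V-ATPase subunits and assembly factors, 1 rose and 3 fell (30.8% called). Rogdi, whose yeast relative helps to reassemble the pump, had 5.15, 4.70 and 4.32 in knockouts, 13.7, 13.8 and 13.6 in Cre controls and 17.6, 12.7 and 14.7 in floxed controls. It fell by 1.42 (adjusted p = 3.58e-06). Tcirg1, the a3 form of the V0 a subunit, fell by 0.61 and Atp6v0a2 by 0.21, and Ccdc115, an assembly factor, rose by 0.70.

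Of 20 further regulators of TFEB and of mTORC1 at the lysosome, 1 rose and 2 fell (15% called). The Rag GTPase gene Rragb rose by 0.50, its partner Rragc fell by 0.26, and Flcn, folliculin, fell by 0.23. Of 23 genes of lysosome delivery and fusion, 4 rose and 7 fell (47.8% called). Igf2r, the receptor that carries mannose 6-phosphate tagged hydrolases to the lysosome, had 49.98, 36.2 and 40.9 in knockouts, 4.03, 5.65 and 4.35 in Cre controls and 23.5, 5.17 and 6.35 in floxed controls. It rose by 2.49 ± 0.36 (adjusted p = 0.000449), and floxed control 1 was the high library among the controls. Gnptg, a subunit of the enzyme that makes the tag, fell by 0.40, and the sorting adaptor gene Gga2 fell by 0.53. Borcs5, a subunit of the complex that positions lysosomes, rose by 0.48.

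**Figure D4:**
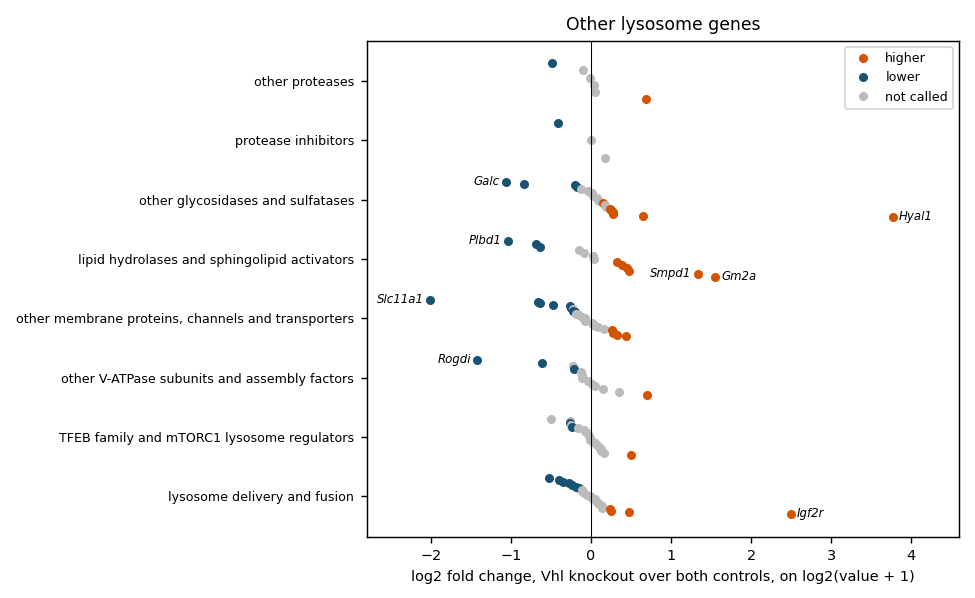
Each point is 1 of the 124 other lysosome genes, placed by its log2 fold change in Vhl knockouts over both controls and coloured by call at an adjusted p under 0.05. Hyal1 at 3.77 and Igf2r at 2.49 are the highest and Slc11a1 at -2.005 the lowest, while most points lie near 0. Hyal1 is in the table only through its knockout values.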

How the data were processed

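The authors deposited 1 table of 12003 Ensembl genes by 9 libraries, whose signal values are read counts scaled to library size. The GRCm38 build, RSEM 1.2.3, cutadapt 1.3 and CASAVA 1.8.2 are named in the submitters' processing notes. The sources used here give no strand setting, annotation or later steps. Dividing by 1 factor per library turned 100% of values into whole reads (tolerance 0.01 read), 18201116 to 25861174 reads per library, and the scaling equalled recomputed TMM factors. Such scaling hides a shift shared by all genes, and no gene length enters. Each gene has at least 0.962 in at least 3 libraries, so lower genes are not analysed here.

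Values were fitted as log2(value + 1), a scale that understates changes of low genes, with limma 3.58.1 (R 4.3.3, intensity trend, 9 libraries, two-sided, Benjamini-Hochberg over 12003 genes) and checked on simulated data. edgeR 4.0.16 and DESeq2 1.42.0 on the recovered reads were alternatives, besides pseudocounts of 0.1 and 5, a mean of at least 5, no trend, other scalings, a replicate block and omitted libraries. Positions and exon lengths are from GENCODE M21, promoters from RefSeq. Values by library are given for up to 4 genes per class, ordered by adjusted p, and for up to 2 highly expressed uncalled ones. From each wider list, up to 4 called genes with the largest fold change are named. Members and lists were chosen with earlier results of these data known. Libraries of 1 genotype differed beyond counting noise in every pair.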

Additional observations from a re-analysis of the deposited data

Results flagged for a closer look

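The knockout effect on Atp6v1e1, a peripheral stalk subunit of the V-ATPase, differed with the control used. The log2 fold change against Cre controls minus that against floxed controls was -0.96 (limma adjusted p = 0.000445 for the difference between the controls). The 3 knockout libraries had 121 to 133 normalized reads, the 3 Cre control libraries 238 to 267 and the 3 floxed control libraries 118 to 140. The difference kept its direction and its call in every alternative run.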

How the results depend on the processing

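Of the 23 genes called against both controls, 14 kept their call and direction under all 19 alternatives. The other 9 (Atp6v0c, Atp6v1h, Ctsb, Ctsd, Ctsz, Hexa, Lamp1, Man2b1 and Neu1) lost it under at least 1, and 5 uncalled genes (Atp6ap2, Atp6v0d1, Cd68, Ctsl and Grn) passed under at least 1. Among the 14 was Atp6v1e1, which was not called against floxed controls alone (-0.04, limma adjusted p = 0.735). With 1 library left out, the genes called against both controls numbered 4 higher and 11 to 22 lower. Against Cre controls they numbered 2 to 4 higher and 13 to 22 lower, and against floxed controls 3 to 5 higher and 8 to 15 lower. The low ends were without knockout 2 (11 lower against both), without knockout 1 or Cre control 2 (2 higher against Cre controls) and without knockout 2, knockout 3 or Cre control 3 (13 lower against Cre controls). The 15 against floxed controls came without floxed control 3. The calls between controls stayed at 1 higher and 0 lower. Over the same omissions, the share of all genes called in either direction ran from 30.4% to 41.4% against both controls. It ran from 25.4% to 37% against Cre controls and from 25.8% to 34.2% against floxed controls. Without library 1 of every genotype, 15 genes were called lower and 4 higher against both controls. There were then 20 lower and 2 higher against Cre controls, and 7 lower and 1 higher against floxed controls. Without the scaling factor, 20 genes were called lower against floxed controls in place of 10. The median of all genes in that comparison was then -0.073, against -0.0062 with the factor. The cause of these changes was not tested.

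Sign changes came only in 4 uncalled genes. With 1 library left out, Gaa ranged from -0.06295 to 0.0016, Laptm5 from -0.0089 to 0.049 and Atp6v0d2 from -0.052 to 0.079. The sign of Gaa turned (0.0016) without knockout 3, Cd63 was -0.035 without library 1 of every genotype, and Laptm5 was -0.028 without the scaling factor and -0.0089 without Cre control 2. Atp6v0d2 was -0.037 without the scaling factor, -0.087 without library 1 of every genotype, -0.052 without knockout 1, -0.0092 without Cre control 1, -0.0016 without floxed control 1 and -0.00081 without floxed control 3.

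Library numbers were not taken to pair the samples. Correlations of same-numbered libraries ran from -0.093 to 0.52 over 9 pairs, and those of different numbers from -0.44 to 0.38 over 18. The 3 of 9 libraries that correlated best with their own number in both other genotypes were library 1 of each genotype. These libraries also had the highest neutrophil marker sums, and a factor shared by them was not tested. A replicate block gave 17 genes lower in place of 19, losing Ctsb (adjusted p = 0.0565) and Ctsd (0.0577), and 4 higher. Over all genes, it called 71 between the controls, where the main fit called 20. No member was near the limit of a count of 0.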

Other observations

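Several genes that differed between the controls lay on the chromosome that carries Vhl. Of 20 genes called in Cre controls against floxed controls, 11 were on chromosome 6, which holds 572 of the genes tested (4.77%). Their starts ran from 116 to 138.1 Mb, and Vhl starts at 113.6 Mb. Atp6v1e1, at 120.8 Mb, was among them. Atp6v1f, the other proton pump gene on this chromosome, was not called, with 102 ± 4.55 normalized reads in knockouts, 97.0 ± 3.59 in Cre controls and 90.9 ± 13.4 in floxed controls (SD, n = 3).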
